A study of Mus musculus with 13 samples.

Results

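The late cornified envelope (Lce) genes and the other cornification genes described here are 40 named genes of the mouse: 14 of the Lce1 family, 6 of the Lce3 family, Lce6a, and 19 genes outside the Lce families. The members were picked by gene symbol, from a list made with earlier results of these data known. Of the 40, 37 had a probe set of their own among the 19934 genes with one on the array, and the highest-mean probe set stood for each gene. All 37 passed the filter on low values (a log2 intensity above 5 on at least 3 of 13 arrays) and were among the 15875 genes tested. Lce3d was read only by a probe set shared by Lce3a to Lce3f, and no listed probe set read Lce1m or Flg, so 13 Lce1, 5 Lce3, Lce6a and 18 other genes have values.

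The study asked how loss of p120-catenin, the protein of Ctnnd1 that binds classical cadherins at adherens junctions, alters the squamous epithelium of the upper digestive tract. All animals carried L2-Cre on a mixed background of C57Bl/6 and 129, and epithelium was freed with dispase. The groups were forestomach masses of 3 animals with floxed p120 alleles (Cre/p120 flox/flox, animals 412, 426 and 510), forestomach of 3 control animals (Cre/p120 +/+, animals 214, 216 and 217), esophagus of 4 flox/flox animals (193, 307, 313 and 335), and esophagus of the same 3 control animals. Since forestomach of flox/flox animals was sampled only from masses, genotype and mass cannot be told apart. L2-Cre is known as a transgene under the ED-L2 promoter, active in squamous epithelium of the mouth, esophagus and forestomach. Ages were not given in the sources used here. Values are log2 intensities. Levels of different probe sets are not compared with each other.

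In stratified squamous epithelium the outermost cells replace their plasma membrane with the cornified envelope, a shell of proteins crosslinked by transglutaminases. Involucrin and loricrin form its scaffold and bulk, and the small LCE proteins are added late. Most genes of these proteins lie together on mouse chromosome 3 in the epidermal differentiation complex. Mouse forestomach and esophagus are both lined by a keratinised squamous epithelium.

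Of the 40 members, 28 lie on chromosome 3. In the RefSeq gene order Lce6a is followed by the Lce1 genes from Lce1a1 to Lce1k, then Kprp, Lce1l and 2310050C09Rik, and then Lce3a to Lce3f. Probe sets of related Lce genes may share signal, which could not be checked here, so the split of a change among single Lce genes is uncertain. RefSeq promoter windows (GRCm38.p6, 250 bases before to 50 after the start) were given for 36 members. The Lce1 windows include that of Lce1m, which was not measured, and lack that of Lce1f, which was. The Lce3 windows include that of Lce3d. Identity of aligned windows had a median of 65.7% over 78 pairs within Lce1 and 59.5% over 15 pairs within Lce3, against 52.8% over 78 pairs between the families. Lce1g and Lce1i were the most alike, at 86.0%.

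The 150 bases before the start are shown for members of each Lce family and for a pair of genes outside it whose levels differed between tissues. On the minus strand of GRCm38.p6 they are Lce1h at chr3:92765066-92765215, Lce1l at chr3:92851287-92851436, Lce3a at chr3:92926231-92926380, Lce6a at chr3:92621661-92621810 and Ivl at chr3:92573736-92573885. On the plus strand they are Lce3e at chr3:92966911-92967060 and Hrnr at chr3:93319599-93319748. Each is written 5′ to 3′ on the gene's strand. Capitals mark the TATA box TATAAA or the like run ATAAAA in all, the word TGTCTCA in Lce1, the word TGTGAAA in Lce3, and the AP-1 motif TGANTCA.
Lce1h: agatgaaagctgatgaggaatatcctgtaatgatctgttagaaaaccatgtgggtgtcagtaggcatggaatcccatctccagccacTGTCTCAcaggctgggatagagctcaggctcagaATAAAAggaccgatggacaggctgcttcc
Lce1l: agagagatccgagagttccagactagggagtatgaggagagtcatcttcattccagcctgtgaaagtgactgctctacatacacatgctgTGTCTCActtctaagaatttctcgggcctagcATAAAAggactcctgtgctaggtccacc
Lce3a: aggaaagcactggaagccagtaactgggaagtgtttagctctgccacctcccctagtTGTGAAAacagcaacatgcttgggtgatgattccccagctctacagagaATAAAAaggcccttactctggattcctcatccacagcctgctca
Lce3e: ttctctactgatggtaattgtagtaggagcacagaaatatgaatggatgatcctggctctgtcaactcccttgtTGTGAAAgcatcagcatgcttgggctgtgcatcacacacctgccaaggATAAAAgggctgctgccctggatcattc
Lce6a: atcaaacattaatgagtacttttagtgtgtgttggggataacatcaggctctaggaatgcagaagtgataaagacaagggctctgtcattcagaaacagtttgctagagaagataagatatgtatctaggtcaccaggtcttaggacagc
Ivl: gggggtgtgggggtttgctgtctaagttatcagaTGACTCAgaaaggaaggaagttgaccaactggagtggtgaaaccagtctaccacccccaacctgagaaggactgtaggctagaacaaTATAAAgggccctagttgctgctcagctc
Hrnr: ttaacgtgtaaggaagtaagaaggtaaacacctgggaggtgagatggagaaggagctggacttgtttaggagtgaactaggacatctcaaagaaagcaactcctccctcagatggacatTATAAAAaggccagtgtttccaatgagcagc

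The run ATAAAA was found, on the gene's strand, in 12 of 13 Lce1 windows and 6 of 6 Lce3 windows, against 11.1% of all 32851 windows of the same length. It began 29 bases before the start in Lce1h, 28 bases before it in Lce1l and Lce3e, and 44 bases before it in Lce3a. TGTCTCA was read from these windows as a word common in Lce1. It stood in 11 of 13 Lce1 windows, none of the 6 Lce3 windows and 1 of 16 windows outside Lce, against 2.56% of all windows. TGTGAAA, read the same way for Lce3, stood in 5 of 6 Lce3 windows and 2 of 13 Lce1 windows, among them Lce1l, where it is left in lower case, against 2.31% of all. Other words were as common, among them TAAAAGG in 11 of 13 Lce1 windows and ATGCTTG in 5 of 6 Lce3 windows. As both words were picked from these same windows, their shares are description only. TATAAA, which overlaps ATAAAA when followed by a further A, stood in 9 of 16 windows outside Lce, 2 of 13 Lce1 windows and no Lce3 window, against 8.32% of all windows, and ATAAAA itself in 5 of the 16. No test was made between these groups of windows. The AP-1 motif, searched on both strands, stood in 10 of these 16 and in none of the 20 Lce windows, against 7.81% of all. The Krüppel-like factor motif GGGNGTG, on both strands, stood in 4 of 16 windows outside Lce, 1 of 13 Lce1 windows and no Lce3 window, against 29.2% of all. On both strands the Grainyhead-like motif AACCGGTT and the octamer ATTTGCAT were in no member's window, against 0.146% and 1.74% of all windows. Lce6a held none of the motifs searched. These are matches of letters only. For each member the first listed window was counted, while the shares of all windows took in every window of a gene. Dmkn, Tgm1 and Cdsn had further windows, and a further window of Dmkn held both ATAAAA and GGGNGTG.

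The squamous epithelial markers (8 genes, among them Krt5 and Krt13) averaged 12.26 to 12.65 on all 13 arrays, so squamous epithelium was read on each. Their averages overlapped between control forestomach and control esophagus, so they do not check which of these tissues was sampled. Ctnnd1 was at 9.66, 9.91 and 9.51 in the masses, against 10.40, 10.14 and 10.23 in control forestomach, a log2 change of -0.56 (SE 0.12, limma adjusted p = 0.0145). In esophagus its change of -0.29 did not pass (limma adjusted p = 0.637). Mass 426 stood apart: its 10 measured glandular stomach markers averaged 11.31, against 5.44 to 6.01 on the other arrays, and results on the masses are therefore also given without it. The 12 striated muscle markers averaged 8.09 and 9.53 in flox/flox esophagus 307 and 335 and 8.27 in control esophagus 214, against 5.62 to 6.07 elsewhere. The 10 leukocyte markers averaged 6.75 to 7.35 in the masses and 6.08 to 6.45 in control forestomach. The 6 endothelium markers averaged 7.82, 7.61 and 6.67 in masses 412, 426 and 510, against 6.32, 5.73 and 5.67 in control forestomach of animals 214, 216 and 217, with no overlap. The 8 fibroblast and matrix markers averaged 8.496, 9.25 and 7.10 in the same masses, against 7.37, 6.49 and 6.42 in control forestomach, and overlapped. On the esophagus arrays rich in striated muscle markers (307, 335 and control 214), the fibroblast and matrix markers averaged 9.42, 10.01 and 10.87, against 6.35 to 6.58 on the other esophagus arrays, and the endothelium markers 7.09, 7.55 and 7.59, against 5.42 to 6.01. The part of fibroblast, matrix and endothelium transcripts in the results below was not tested. The median SD of a gene was 0.248 in the masses, against 0.115 in control forestomach.

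The control tissues, taken from the same 3 animals, showed where these genes are normally high. Of the 37 members, 10 were higher in control forestomach than in control esophagus (3.51% of all genes tested were) and 3 were lower (3.16% of all genes tested), by limma at an adjusted p under 0.05. The families went opposite ways. Each of the 13 Lce1 genes lay above 0 in the difference, with a median of 1.24, and each of the 5 Lce3 genes below 0, with a median of -0.94, while the median over all genes tested was 0.02. The lowest forestomach array lay above the highest esophagus array in 13 of 13 Lce1 genes (18% of all genes tested), and the highest lay below the lowest esophagus array in 4 of 5 Lce3 genes (19.3% of all). Fewer cells of a type and less RNA per cell cannot be told apart in such samples.

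Averaged over the 13 genes, the Lce1 family was at 11.18, 11.29 and 10.88 in control forestomach of animals 214, 216 and 217, against 10.38, 9.04 and 9.63 in their esophagus. The call was made for 6 of 13: Lce1e, Lce1f, Lce1g, Lce1h, Lce1i and Lce1l. Lce1h was at 11.78, 11.86 and 11.35 in control forestomach, against 10.59, 9.11 and 9.58 in control esophagus of the same animals, a difference of 1.90 (SE 0.43, limma adjusted p = 0.0223). Every forestomach array lay above every esophagus array, and esophagus 214 was the highest of the 3. Lce1l was at 9.57, 9.84 and 9.14 in control forestomach, against 7.96, 6.89 and 7.41 in control esophagus, a difference of 2.10 (SE 0.45, adjusted p = 0.0157). The order of arrays was as in Lce1h.

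Lce1g was at 8.63, 8.51 and 8.01 in control forestomach, against 7.37, 5.90 and 6.53 in control esophagus, a difference of 1.78 (SE 0.36, limma adjusted p = 0.0113). Lce1i was at 11.67, 11.60 and 11.16, against 10.19, 7.91 and 8.92, a difference of 2.47 (SE 0.64, adjusted p = 0.0408). Lce1i had the largest difference of the family and also the widest spread among esophagus arrays. The 7 members not called, Lce1a1, Lce1a2, Lce1b, Lce1c, Lce1d, Lce1j and Lce1k, had differences of 0.63 to 1.24. With the animal as a random replicate block, Lce1a1 and Lce1a2 among them were called higher (limma adjusted p = 0.0269 and 0.0275).

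Lce3a was at 9.92, 10.27 and 9.26 in control forestomach, against 12.07, 11.86 and 11.65 in control esophagus, a difference of -2.05 (SE 0.31, limma adjusted p = 0.00233). Lce3b was at 9.004, 9.42 and 8.43 in control forestomach, against 10.79, 10.62 and 10.43 in control esophagus, a difference of -1.66 (SE 0.36, adjusted p = 0.0172). Both were lower on every forestomach array than on any esophagus array. Lce3c, Lce3e and Lce3f had differences of -0.88, -0.94 and -0.67 that did not pass. With the animal as a random replicate block, which pairs the tissues of each control, 8 members were called lower in place of 3, and Lce3c, Lce3e and Lce3f were among them, with adjusted p-values of 0.0095, 0.0242 and 0.0485. The probe set shared by Lce3a to Lce3f, the only one to read Lce3d, stood at 12.38 ± 0.13 in control forestomach and 13.22 ± 0.18 in control esophagus (SD, n = 3 each).

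Along the chromosome the sign turned once inside the Lce block. Lce1l was 4.28-fold higher in control forestomach than in control esophagus. Its neighbour on one side was Kprp, on the other 2310050C09Rik, and beyond that gene lay Lce3a, which was 4.13-fold lower in control forestomach. Of the 13 Lce1 genes measured none lies among the Lce3 genes; Lce1m, which lies beyond them, was not measured.

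**Figure D1:**
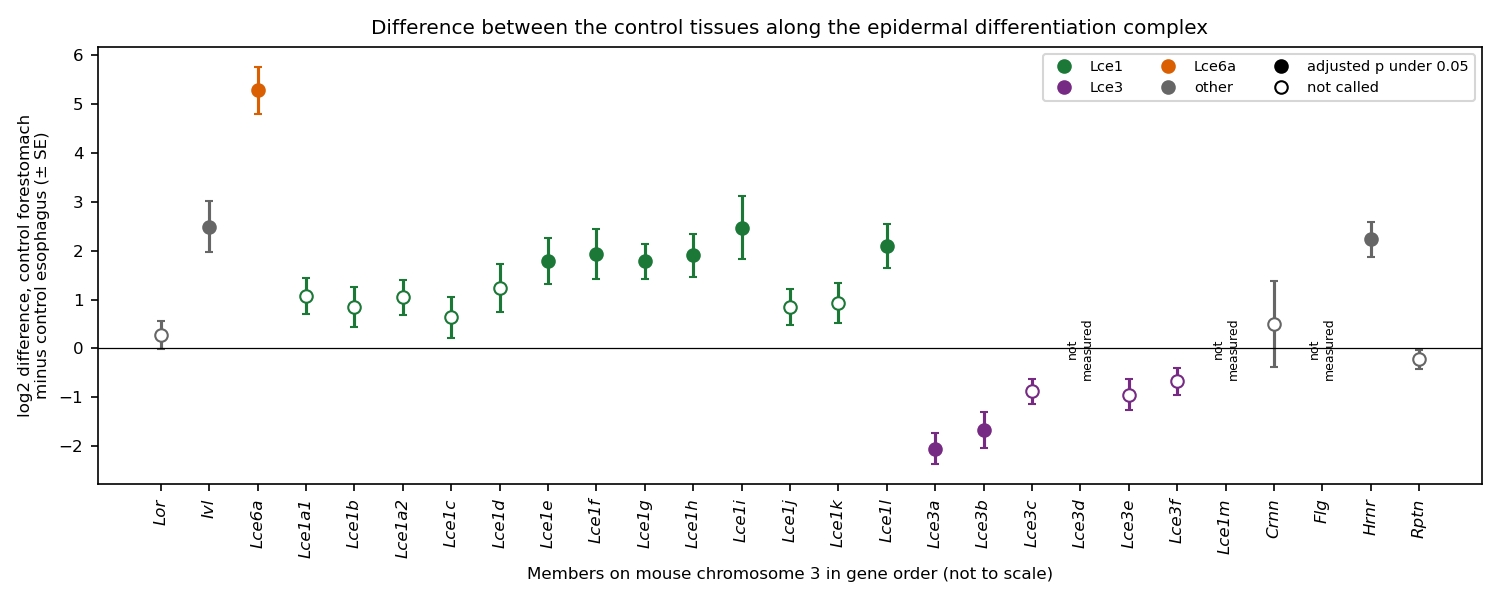
Log2 difference of control forestomach minus control esophagus (y axis, points with SE of the limma fit, n = 3 arrays each) for members on chromosome 3 in RefSeq gene order (x axis, not to scale; Ecm1, which lies farther along, is left out). Lce6a and the 13 Lce1 genes lie above 0 and the 5 Lce3 genes below it. Filled points passed an adjusted p under 0.05. Lce6a passed the filter on low values mainly through forestomach arrays, so its filled point is not to be read as a size or a test.

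Lce6a, the lone member of its own Lce branch here, was at 9.34, 9.97 and 9.58 in control forestomach, against 4.13, 4.29 and 4.64 in control esophagus of animals 214, 216 and 217. The control esophagus values all lay under the filter level of 5, near the lower end of the scale. Lce6a passed the filter through the forestomach arrays, masses included, and 1 flox/flox esophagus array, which favours a difference in this direction, so no size or test of it is given. It is 1 of the 10 members counted as higher.

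Outside Lce, 3 of 18 members were called higher (3.51% of all genes tested were) and 1 lower (3.16%). Ivl, the gene of involucrin, an early scaffold of the envelope, was at 8.74, 7.21 and 8.40 in control forestomach, against 5.31, 5.66 and 5.90 in control esophagus of the same animals, a difference of 2.49 (SE 0.52, limma adjusted p = 0.014). The groups did not overlap, and forestomach 216 was the lowest of the 3. Hrnr, the gene of hornerin, a filaggrin-like S100-fused protein, was at 13.88, 13.88 and 13.84 in control forestomach, against 11.78, 11.51 and 11.62 in control esophagus, a difference of 2.23 (SE 0.36, adjusted p = 0.0032). Its 3 forestomach arrays were almost level.

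Spink5 encodes LEKTI, an inhibitor of the kallikreins that shed cells. It was at 13.39, 13.41 and 13.44 in control forestomach, against 12.48, 12.44 and 12.55 in control esophagus, a difference of 0.92 (SE 0.16, limma adjusted p = 0.00581). Calml3, a calmodulin-like protein of epithelial cells, was at 10.74, 10.57 and 10.60 in control forestomach, against 11.65, 11.71 and 11.63 in control esophagus, a difference of -1.02 (SE 0.27, adjusted p = 0.0461). Neither gene's groups overlapped. Tgm3, a transglutaminase that crosslinks envelope proteins, had a difference of -1.20 that did not pass (limma adjusted p = 0.155), and with the replicate block it did (adjusted p = 0.0401). The remaining 13 lay between -0.66 and 0.51, among them Lor, the gene of loricrin, at 0.28, Tgm1, another crosslinking enzyme, at 0.16, and Rptn, the S100-fused repetin, at -0.22. Of these 13, Sbsn was called higher and Ecm1 lower with the random replicate block (limma adjusted p = 0.0484 and 0.0432).

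The calls for Lce3a, Hrnr and Spink5 held under all 27 alternatives, that of Calml3 under 12, that of Lce1f under 14 and that of Lce1e under 15. With the animal as a fixed replicate block on control arrays, Lce1e and Lce1f were not called. Lce1a1 and Lce1a2, not called in the main fit, were called higher with that block (limma adjusted p = 0.048 and 0.0444). The count of members higher fell to 3 without control forestomach 214, to 4 without control forestomach 216, to 6 without control forestomach 217, and to 5 without control esophagus 216 or 217. The count lower was 1 without control esophagus 214, the control with high striated muscle markers, and also 1 without control esophagus 216 or without control forestomach 214 or 217. It was 5 without mass 412, which enters only through the shared spread.

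In the wider cornification lists, which hold no members, the control tissues differed at genes of each list, against 3.51% of all genes tested higher and 3.16% lower. Of 8 keratins tested, 3 were higher in control forestomach and none lower: Krt1 by 7.42 (SE 0.35) and Krt10 by 6.22 (SE 0.51), the keratin pair of keratinised suprabasal cells, and Krt23 by 1.04 (SE 0.17). Of 19 proteases and inhibitors of desquamation tested, 6 were higher and 1 lower: Klk5, a kallikrein, by 3.97 (SE 0.50), Ctsl, the gene of cathepsin L, by 1.82 (SE 0.20), while Klk14, a further kallikrein, differed by -3.28 (SE 0.32). Of 14 envelope and corneodesmosome genes tested, Flg2 was called higher with its 3 control esophagus arrays, at 3.70 to 4.35, under the filter level, so the size of its difference is not given, and Tgm5 and Pkp1 were lower, with differences of -1.30 (SE 0.26) and -0.64 (SE 0.12). Of 16 regulators tested, 3 were higher and 1 lower, and the transcription factor genes Gata3, Cebpa and Maf among them differed by 2.85 (SE 0.33), 0.70 (SE 0.16) and -0.98 (SE 0.15). These calls were by limma at an adjusted p under 0.05.

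**Figure D2:**
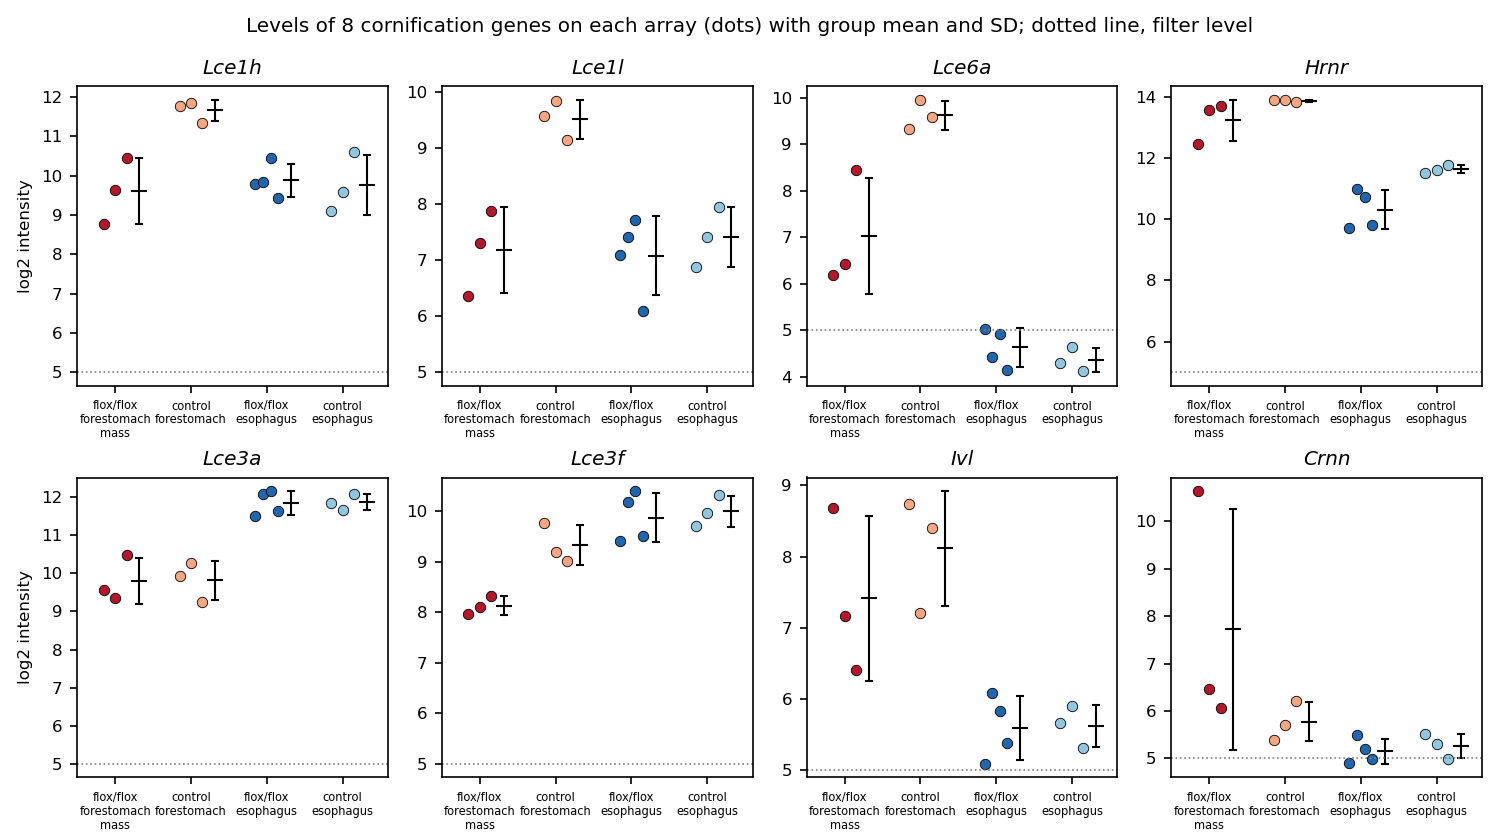
Log2 intensity (y axis) of 8 members on each of 13 arrays (points), with the group mean and SD beside them, in flox/flox forestomach masses, control forestomach, flox/flox esophagus and control esophagus (x axis). Lce1h and Lce1l are highest in control forestomach, Lce3a is high in both esophagus groups, Lce6a is below the dotted level of 5 on all but 1 esophagus array, and Crnn is at 10.64 in mass 412 alone.

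In the forestomach masses 11 of 13 Lce1 genes and Lce6a were called lower than in control forestomach, as were 5 of 18 members outside the Lce families. Of the 37 members, 19 were called lower (8.4% of all genes tested were) and none higher (2.31% of all genes tested), by limma at an adjusted p under 0.05. Crnn alone had an unadjusted p under 0.05 in the higher direction. The 19 were 11 of 13 Lce1 genes, 2 of 5 Lce3 genes, Lce6a and 5 of 18 others. Of the 18 others, 16 lay below 0. In 9 of the 18, each mass lay below every control forestomach array (17.5% of all genes tested). The median change was -1.86 in Lce1, -0.66 in Lce3 and -0.51 outside Lce, against 0.01 over all genes tested. This comparison shares its 3 control forestomach arrays with the comparison of the tissues, where they stand on the other side, so the values for a gene are given side by side and not related to each other.

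All 13 Lce1 genes were lower on each mass than on any control forestomach array (17.5% of all genes tested were lower in this way and 10.3% higher). Averaged over the 13 genes, the family was at 8.42, 9.36 and 10.16 in masses 412, 426 and 510, against 11.18, 11.29 and 10.88 in control forestomach of animals 214, 216 and 217. Mass 412 was the lowest of the 3 masses in each Lce1 gene and mass 510 the highest. In esophagus the averages were 9.23 to 10.24 in the flox/flox group and 9.04 to 10.38 in controls, so the masses overlapped them.

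Lce1a2 was at 6.52, 7.31 and 8.04 in the masses, against 9.37, 9.52 and 9.10 in control forestomach, a change of -2.04 (SE 0.36, limma adjusted p = 0.00545). Lce1l was at 6.36, 7.30 and 7.88 in the masses, against 9.57, 9.84 and 9.14 in control forestomach, a change of -2.34 (SE 0.45, adjusted p = 0.00823). Its level in the masses was 5.05-fold lower. Lce1g was at 6.02, 6.51 and 7.07 in the masses, against 8.63, 8.51 and 8.01 in control forestomach, a change of -1.85 (SE 0.36, adjusted p = 0.00848). Lce1h was at 8.76, 9.63 and 10.44 in the masses, against 11.78, 11.86 and 11.35 in control forestomach, a change of -2.05 (SE 0.43, adjusted p = 0.0128). In each of these genes the highest mass lay below the lowest control array.

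Lce1i was at 7.69, 9.23 and 10.32 in the masses, against 11.67, 11.60 and 11.16 in control forestomach, a change of -2.40 (SE 0.64, limma adjusted p = 0.0345). This was the largest change of the family, and its masses were also the most spread. The other called members, Lce1a1, Lce1b, Lce1d, Lce1e, Lce1f and Lce1k, fell by 1.46 to 1.94 on the log2 scale. The call for Lce1e held under 8 of 26 alternatives. Lce1c and Lce1j, with changes of -1.31 and -1.17, did not pass (limma adjusted p = 0.0701 and 0.0603).

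Within Lce3 the members divided. Lce3f was at 7.95, 8.11 and 8.32 in the masses, against 9.77, 9.18 and 9.02 in control forestomach, a change of -1.20 (SE 0.28, limma adjusted p = 0.0194). Lce3e was at 8.09, 8.38 and 9.09 in the masses, against 9.98, 9.56 and 9.52 in control forestomach, a change of -1.17 (SE 0.32, adjusted p = 0.0386). The groups did not overlap in either gene. Lce3a was at 9.57, 9.35 and 10.49 in the masses and 9.92, 10.27 and 9.26 in control forestomach, with a change of -0.01 (SE 0.31), and Lce3b changed by 0.14 (SE 0.36). Lce3c changed by -0.66 (SE 0.25, limma adjusted p = 0.119). The probe set shared by all 6 stood at 11.93 ± 0.65 in the masses and 12.38 ± 0.13 in control forestomach (SD, n = 3 each), and overlapped between them. No test of a difference among Lce3 genes was made.

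Lce6a was at 6.19, 6.43 and 8.46 in the masses, against 9.34, 9.97 and 9.58 in control forestomach, a change of -2.60 (6.07-fold lower, SE 0.48, limma adjusted p = 0.00661). Mass 510 held most of the remaining signal. All 3 masses stayed above the esophagus arrays, where Lce6a was at 4.13 to 5.03.

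Among envelope precursors and associated proteins, 2 of 7 were called lower (8.4% of all genes tested were). Scel, the gene of sciellin, an envelope-associated protein, was at 10.52, 10.85 and 11.17 in the masses, against 11.74, 11.76 and 11.74 in control forestomach, a change of -0.90 (SE 0.17, limma adjusted p = 0.00762). Lor was at 11.65, 12.94 and 13.06 in the masses, against 13.65, 13.59 and 13.55 in control forestomach, a change of -1.05 (SE 0.29, adjusted p = 0.039). Mass 412 was the lowest in both genes, and both groups were apart. Ivl was at 8.68, 7.16 and 6.40 in the masses, against 8.74, 7.21 and 8.40 in control forestomach, and its change of -0.70 (SE 0.52) did not pass (limma adjusted p = 0.46). Cnfn, Ecm1, Cstb and Csta1, the genes of cornifelin, extracellular matrix protein 1 and the cystatins B and A1, had changes of -0.42 to 0.10 that did not pass.

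Of 4 secreted or calcium-binding differentiation proteins, 2 were called lower (8.4% of all genes tested were). Sbsn, the gene of suprabasin, was at 10.45, 10.71 and 10.82 in the masses, against 11.88, 11.62 and 11.47 in control forestomach, a change of -0.999 (SE 0.19, limma adjusted p = 0.0082). Dmkn, the gene of dermokine, its neighbour on chromosome 7, was at 12.64, 12.82 and 13.09 in the masses, against 13.37, 13.32 and 13.19 in control forestomach, a change of -0.44 (SE 0.12, adjusted p = 0.0338). The third gene of that row, Krtdap, the gene of keratinocyte differentiation-associated protein, changed by -0.33 (SE 0.11, limma adjusted p = 0.0898), and Calml3 by -0.88 (SE 0.27, adjusted p = 0.0616). Of the desquamation genes, Spink5 was at 12.41, 12.90 and 13.19 in the masses, against 13.39, 13.41 and 13.44 in control forestomach, a change of -0.58 (SE 0.16, adjusted p = 0.0438). All 3 called genes were lower on every mass than on any control array, and the call for Spink5 held under 7 of 26 alternatives and that for Dmkn under 14. Cdsn, the gene of corneodesmosin, which holds cornified cells together, changed by -0.64 and did not pass (limma adjusted p = 0.115).

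No S100-fused protein or transglutaminase was called. Crnn, the gene of cornulin, a squamous S100-fused protein, was at 10.64 in mass 412 and at 6.46 and 6.07 in masses 426 and 510, against 5.40, 5.71 and 6.21 in control forestomach, a change of 1.95 (SE 0.88, limma adjusted p = 0.194). Mass 412 alone stood apart, and the groups overlapped. Tgm3 was at 9.71 in mass 412, the lowest of all arrays, and at 11.67 and 12.16 in the other masses, against 12.11, 12.15 and 12.43 in control forestomach. Its change of -1.05 (SE 0.46) did not pass (limma adjusted p = 0.182). Hrnr, Rptn and Tgm1 had changes of -0.63, -0.44 and -0.23.

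Without mass 426, the one with glandular stomach transcripts, 13 members were called lower: 7 Lce1 genes, Lce3f, Lce6a, and Lor, Sbsn, Scel and Calml3. The median change of Lce1 was then -1.85, and Lce6a changed by -2.30 (SE 0.52, limma adjusted p = 0.0173). Mass 412 and control forestomach also weighed on the count, which was 9 without mass 412 and 6, 7 and 9 without control forestomach 214, 216 and 217. With the leukocyte marker average as a covariate 5 members were called lower, Lce1a2, Lce1g, Lce6a, Sbsn and Scel, and the median of Lce1 was -1.80. The part of leukocyte transcripts in the result was not tested beyond this. The calls for Lce1a2, Lce1g, Sbsn and Scel held under all 26 alternatives.

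**Figure D3:**
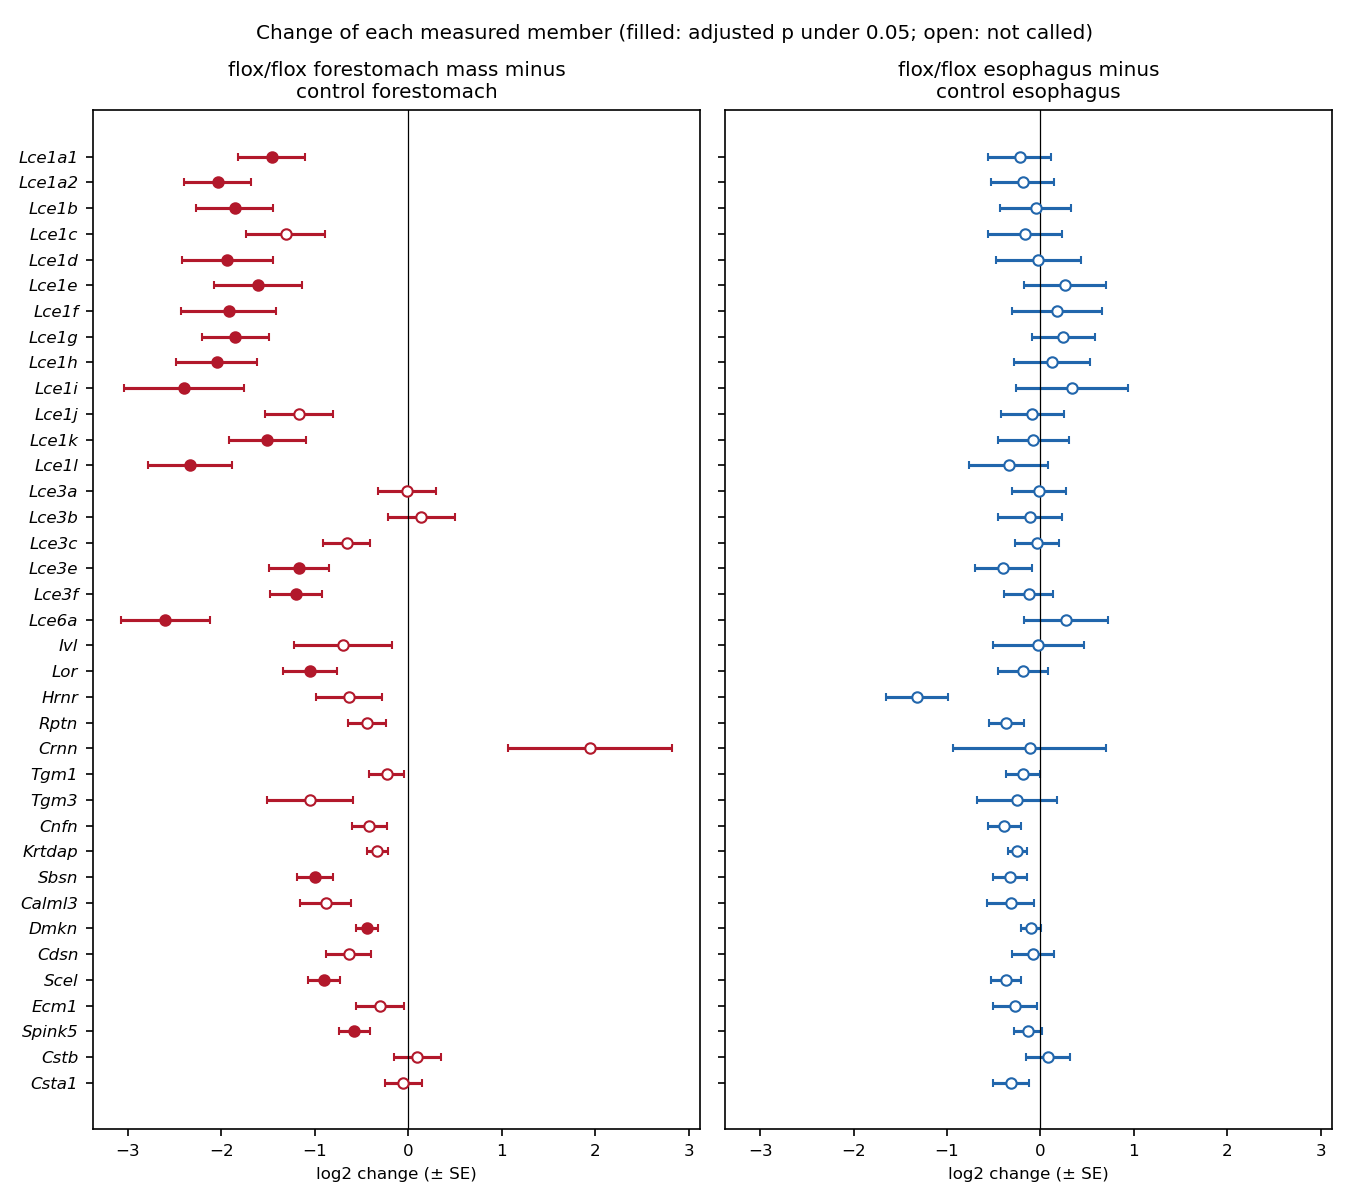
Log2 change (x axis, points with SE of the limma fit) of the 37 measured members (y axis), on the left in flox/flox forestomach masses minus control forestomach (n = 3 each) and on the right in flox/flox esophagus (n = 4) minus control esophagus (n = 3). On the left 19 points are filled, meaning an adjusted p under 0.05, and all lie below 0; on the right none is filled.

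Around the members, the wider lists save the keratins held calls in both directions in the masses, where 8.4% of all genes tested were lower and 2.31% higher. Of 8 keratins tested, 3 fell and none rose, with log2 changes of -2.33 (SE 0.37) in Krt76, -0.85 (SE 0.17) in Krt23 and -0.56 (SE 0.13) in Krt4. All 8 keratins lay below 0, with a median of -0.76. All 8 were lower on each mass than on any control forestomach array (17.5% of all genes tested). Of 14 envelope and corneodesmosome genes tested, 4 fell and 2 rose, among them Evpl and Ppl, the genes of envoplakin and periplakin, which anchor the envelope, with changes of -0.98 (SE 0.18) and -0.57 (SE 0.12). Stfa3, a stefin with near-identical copies, rose by 2.48 (SE 0.51). Of 19 proteases and inhibitors tested, 6 fell and 1 rose: Klk14 rose by 2.51 (SE 0.32), and Ctsl and Cst6, the gene of cystatin M/E, changed by -0.99 (SE 0.20) and -1.39 (SE 0.28). Of 16 regulators tested, 2 fell and 1 rose: Grhl1 changed by -0.49 (SE 0.091), Hopx by -0.83 (SE 0.21) and Maf by 0.82 (SE 0.15). Each encodes a nuclear regulator. The counts of regulators called lay near the shares of all genes. Of the 16 regulators, 15 lay below 0, with a median of -0.40, against 0.01 over all genes tested. The groups did not overlap for 6 of the 16, all lower (17.5% of all genes tested). These calls were by limma at an adjusted p under 0.05.

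In flox/flox esophagus no member passed the test against control esophagus in either direction. By limma at an adjusted p under 0.05, 0% of all genes tested were called higher and 0.0126% lower. At an unadjusted p under 0.05, 4 members were lower (4.27% of all genes tested were) and none higher (2.71%): Hrnr, Cnfn, Krtdap and Scel. Groups did not overlap for 6 members, all lower (6.1% of all genes tested, and 4.18% higher): these 4 and Tgm3 and Calml3. The median change was -0.05 in Lce1, -0.11 in Lce3 and -0.25 outside Lce, against 0.01 over all genes tested. The sign of the Lce medians was not stable: without the arrays rich in striated muscle markers they were 0.43 in Lce1 and 0.07 in Lce3, and with the leukocyte marker average as a covariate 0.13 and 0.22.

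Hrnr had the largest change. It was at 9.71, 10.97, 10.74 and 9.82 in flox/flox esophagus of animals 193, 307, 313 and 335, against 11.78, 11.51 and 11.62 in control esophagus of animals 214, 216 and 217, a change of -1.32 (SE 0.33, unadjusted p = 0.00191, limma adjusted p = 0.447). Animals 193 and 335 were lowest. These were also the arrays with the highest leukocyte marker averages, 7.95 and 7.76, against 5.61 to 6.995 in control esophagus. With that average as a covariate no member was called in esophagus either. The part of leukocyte transcripts in the change of Hrnr was not tested beyond this. Cnfn, a component of the envelope, was at 12.29, 12.94, 12.89 and 12.54 in flox/flox esophagus, against 13.09, 13.04 and 13.02 in control esophagus, a change of -0.38 (SE 0.17, adjusted p = 0.707). Each flox/flox array lay below the controls, and 193 and 335 were again lowest.

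The Lce genes overlapped between the esophagus groups without exception. The Lce1 average was 9.56, 9.71, 10.24 and 9.23 in flox/flox esophagus, against 10.38, 9.04 and 9.63 in control esophagus. Lce1i, with the largest change of the family, was at 9.37, 9.02, 10.13 and 8.87 in flox/flox esophagus, against 10.19, 7.91 and 8.92 in control esophagus, a change of 0.34 (SE 0.60). Lce1l was at 7.08, 7.41, 7.72 and 6.10, against 7.96, 6.89 and 7.41, a change of -0.34 (SE 0.42). The controls alone spanned more than either change.

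Lce3e was at 9.79, 10.49, 10.72 and 9.93 in flox/flox esophagus, against 10.90, 10.07 and 10.92 in control esophagus, a change of -0.40 (SE 0.30). Lce3f was at 9.40, 10.17, 10.39 and 9.50, against 10.32, 9.70 and 9.96, a change of -0.13 (SE 0.26). In both, animals 193 and 335 were the lowest of the flox/flox group. Lce3a, at 11.52 to 12.15 in flox/flox esophagus and 11.65 to 12.07 in control esophagus, changed by -0.02 (SE 0.29). None of the wider cornification genes was called in this comparison by limma. At an unadjusted p under 0.05 the 4 lists held 1 higher (2.71% of all genes tested were) and 6 lower (4.27%). The lower ones were 2 of 19 proteases and inhibitors, 2 of 16 regulators and 2 of 8 keratins tested. The higher one was a regulator, and none of the 14 envelope and corneodesmosome genes tested was among them.

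The difference between the genotype changes, that of the masses minus that of esophagus, was below 0 for 31 of 37 members, and no member passed. By limma at an adjusted p under 0.05, 0.0567% of all genes tested were called lower and 0.0819% higher. At an unadjusted p under 0.05, 16 members were lower (7.61% of all genes tested were) and none higher (2.87%), and 12 of the 16 were Lce1 genes. The median difference was -1.88 in Lce1, -0.62 in Lce3 and -0.21 outside Lce, against -0.01 over all genes tested. Without the arrays rich in striated muscle markers the median of Lce1 was -2.47. Lce1g had a difference of -2.10 (SE 0.49, limma adjusted p = 0.119). Lce6a, with an adjusted p of 0.104 by limma, was called with the animal as a random replicate block (adjusted p = 0.0436), but all its esophagus arrays save 1 flox/flox array lay under the filter level, so a fall there could not have been seen. Without mass 510, the mass with the highest Lce1 levels, 5 members were called: Lce6a, Lce1a2, Lce1b, Lce1g and Lce1h. The fall of the Lce1 genes in the masses was thus not shown by the adjusted test to differ from the change in esophagus.

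**Figure D4:**
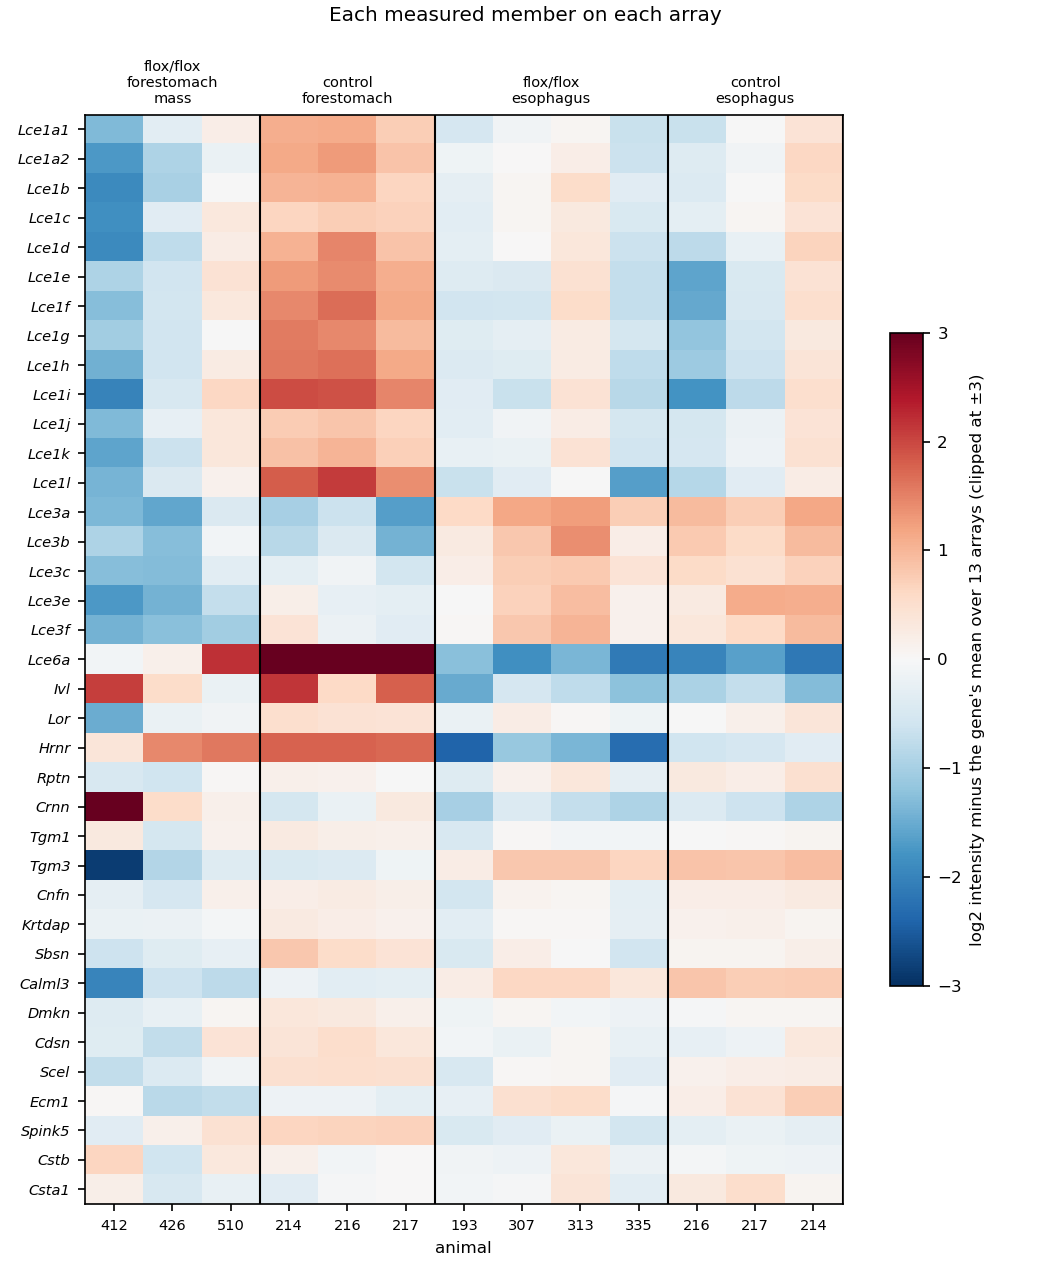
Log2 intensity of each of the 37 measured members (rows) on each of 13 arrays (columns, named by animal within the 4 groups), minus that gene's mean over the arrays; colours are clipped at a difference of 3 either way. The 13 Lce1 rows are at their darkest red in control forestomach, the 5 Lce3 rows are mostly red in both esophagus groups, and the Lce6a row separates forestomach from esophagus.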

How the data were processed

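Total RNA of dispase-freed epithelium was biotin-labelled and hybridised to Affymetrix arrays, per the labels' protocols. The deposited values are linear intensity values that the authors made with GCRMA, per the submitters' processing notes (version not given in the sources used here); the array medians were 65.3 to 72.4, and precision is limited by how few arrays there are. Values were put on the log2 scale and 1 probe set per gene was kept. Group means of all 13 arrays were fitted with limma 3.58.1 in R 4.3.3 (lmFit, eBayes, 9 residual degrees of freedom), which was tested on simulated data, and p-values were adjusted by Benjamini-Hochberg over 15875 genes. Of 34729 probe sets, 21633 had 1 listed gene, 1306 several and 11790 none.

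The 3 control animals gave both tissues. Deviations of their arrays from the group means correlated at 0.401, 0.398 and 0.315 within animals 214, 216 and 217, and at -0.425 to 0.129 between animals, so the animal was used as a paired alternative.

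The members, lists and tests were chosen with earlier results of these data known. By rule, values on every array were given for called members (up to 4 per role and comparison, by smallest adjusted p) and for the largest changes within Lce1, Lce3 and the others. From each wider list up to 3 called genes per comparison were named. Promoter windows came from RefSeq (GRCm38.p6) and were aligned with Biopython 1.88. Alternatives covered the filter, probe sets, normalization, array weights, floor, arrays fitted, animal block, marker covariates, arrays left out in turn and, added after seeing the data, mass 426 and the muscle-rich esophagus arrays left out together. Exon and probe positions were not used here.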

Additional observations from a re-analysis of the deposited data

Results flagged for a closer look

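Among the 4 flox/flox esophagus samples, the gap of 1 array to the nearest other was a larger share of the group's range than Dixon's 95% critical value in 2 of the 37 members. Lce1f was at 9.6172 in animal 313, against 8.34 to 8.52 in the other 3 animals. Cstb, the gene of cystatin B, was at 8.9046 in animal 313, against 8.40 to 8.47 in the others. Chance flags about 1 in 20 such groups. The cause was not tested.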

How the results depend on the processing

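No called member changed sign under any alternative run. In the masses, the 19 members lower became 12 with array weights, 8 with only the arrays of the groups compared and 5 with the leukocyte covariate, and 6 to 26 with each array left out in turn. The control tissues gave 18 members higher in place of 10 with array weights, and 3 to 12 with each array left out. The 3 members lower became 8 with array weights, 6 with only the arrays compared, 1 without the esophagus arrays rich in striated muscle transcripts, 1 when mass 426 was left out too (an alternative chosen after seeing the data), and 1 to 5 with each array left out. With the animal as a random replicate block they were 8, and as a fixed replicate block on control arrays 9; the estimated correlation within animals was 0.396. The difference between genotype changes gave 1 member lower in place of 0 with array weights and 1 with the random replicate block, Lce6a in both (under the filter level on all but 1 esophagus array), and 0 to 5 with each array left out. The replicate block moved no other count by over 1.5 times. In esophagus no member was called under any alternative. Fits of only the groups compared have fewer residual degrees of freedom. Such fits kept 8 of the 19 calls in the masses and 13 of the 13 between control tissues. Arrays also spread differently by group, with median SDs of 0.248 (masses), 0.115 (control forestomach) and 0.137 (control esophagus). The part of degrees of freedom or of spread in the changed counts was not tested, nor was any other cause.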
